A study of Mus musculus with 8 samples.

Results

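The imprinted *Dlk1*-*Dio3* domain of mouse chromosome 12 contains *Dio3*, the gene inactivated in these mice, and was examined together with its neighbours. The genes were chosen by symbol and position: 6 lie inside the domain (*Dlk1*, *Meg3*, *Rtl1*, *Rian*, *Mirg* and *Dio3*), and 4 lie beside it (*Wars* and *Begain* before *Dlk1*, *Ppp2r5c* and *Dync1h1* after *Dio3*). These 10 genes had 37 of the 51414 transcript rows in the table and made up 10 of its 26590 gene symbols. Where a gene had several rows, the row with the highest average of the genotype means was used, and the other rows were compared with it.

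RNA came from the hearts of 4 *Dio3*+/+ fetuses (wild type) and 4 *Dio3*-/- fetuses (knockout) of the strain C57BL/6J, 1 heart per RNA. Sample titles give E13.5 for all 8 hearts, but the age field gives E18.5 for 2 of the 4 *Dio3*-/- hearts. The study's results text and its list of differing genes give E13.5. Its methods and a figure legend give another age, between E13.5 and E18.5, and the design text describes the animals as male. Total RNA was depleted of ribosomal RNA, random primed and sequenced. The deposited table gives, per transcript, a mean for the *Dio3*+/+ and for the *Dio3*-/- hearts, taken as RPKM (a read density per transcript length and sequencing depth), and each mean's coefficient of variation (CV, the SD divided by the mean). All means and CVs below are these deposited values over 4 hearts. The values of single hearts and the read totals were not part of the table, so the depth is unknown from these values, although the study's methods give a range of aligned reads, and where a mean came from high values in few hearts cannot be read directly. The *Dio3*-/- allele was made on a 129/SVJ background and backcrossed to C57BL/6J. Chromosome 12 next to the allele may therefore carry 129 sequence in *Dio3*-/- fetuses. For every gene described here in or beside the domain, an effect of the allele and of linked 129 sequence cannot be told apart.

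Imprinted genes are expressed mainly from the allele of 1 parent. In the *Dlk1*-*Dio3* domain, the protein-coding genes *Dlk1*, *Rtl1* and *Dio3* are expressed preferentially from the paternal chromosome, and the noncoding RNAs *Meg3*, *Rian* and *Mirg* from the maternal chromosome. A control region between *Dlk1* and *Meg3*, methylated on the paternal chromosome, sets this pattern. *Rian* hosts many small nucleolar RNAs, *Mirg* hosts a large cluster of microRNAs, and further microRNAs lie opposite *Rtl1*. *Dio3* encodes the type 3 deiodinase, which inactivates thyroid hormones and is abundant in the placenta and in many fetal tissues.

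The start sites of *Dlk1*, *Meg3* and *Dio3* are shown because they are the starts of a paternally expressed gene, of the maternal transcript next to the control region, and of the targeted gene. Each sequence runs 5′ to 3′ on the plus strand from 250 bases before the start to 50 bases after it, from RefSeq on GRCm38.p6. Capitals mark the hexamer TGCCGC, the letters bound by the imprinting factor ZFP57 when methylated, or its reverse complement GCGGCA.
*Dlk1*, chr12:109452573-109452872: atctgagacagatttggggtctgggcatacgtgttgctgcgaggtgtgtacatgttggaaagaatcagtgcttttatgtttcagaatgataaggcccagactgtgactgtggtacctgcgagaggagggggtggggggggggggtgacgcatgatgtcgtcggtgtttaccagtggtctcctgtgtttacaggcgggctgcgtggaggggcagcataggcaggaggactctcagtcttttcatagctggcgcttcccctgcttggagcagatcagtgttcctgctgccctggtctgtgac
*Meg3*, first start, chr12:109540746-109541045: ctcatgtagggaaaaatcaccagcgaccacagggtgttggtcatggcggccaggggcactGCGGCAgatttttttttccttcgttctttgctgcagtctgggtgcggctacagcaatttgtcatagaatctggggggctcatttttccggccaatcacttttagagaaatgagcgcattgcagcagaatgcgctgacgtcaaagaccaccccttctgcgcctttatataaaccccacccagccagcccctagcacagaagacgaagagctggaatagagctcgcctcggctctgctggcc
*Dio3*, chr12:110278980-110279279: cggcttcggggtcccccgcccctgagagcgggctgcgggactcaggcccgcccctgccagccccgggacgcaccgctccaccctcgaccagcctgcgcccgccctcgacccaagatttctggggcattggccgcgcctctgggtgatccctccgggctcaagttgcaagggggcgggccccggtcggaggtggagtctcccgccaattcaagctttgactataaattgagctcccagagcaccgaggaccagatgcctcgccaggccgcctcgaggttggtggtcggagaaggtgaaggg
The *Dio3* sequence held 25 CpG dinucleotides and was 69.0% G and C. The *Meg3* sequence held 13 CpG (53.7% G and C) and the *Dlk1* sequence 9 (55.7%), against a median of 7 CpG over 32851 promoters of the same length. The hexamer occurred once in *Meg3*, on the reverse strand, and in neither of the other sequences. It is present on either strand in 11.6% of all promoters, so this match is a description only. The half-site AGGTCA of thyroid hormone receptors or its reverse complement TGACCT, searched on both strands, was in none of the 3 sequences and in 16.3% of all promoters. A second *Meg3* start, not shown, held 1 copy.

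RefSeq lists 61 microRNA genes between *Dlk1* and *Dio3*. Of the 58 whose hairpins could be placed, 54 lie on the plus strand, and 6 lie opposite a coding exon of *Rtl1*, which is on the minus strand. Those 6 are shown by 1 mature sequence each, because they pair perfectly with the *Rtl1* transcript and connect a maternal to a paternal product of the domain. Capitals mark the seed (bases 2 to 8), and coordinates are on the plus strand of GRCm38.p6.
miR-431-5p, chr12:109590459-109590479: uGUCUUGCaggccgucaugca
miR-433-3p, chr12:109591781-109591802: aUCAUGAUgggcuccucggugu
miR-127-3p, chr12:109592888-109592909: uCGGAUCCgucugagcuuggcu
miR-434-3p, chr12:109594565-109594586: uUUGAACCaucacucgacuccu
miR-432, chr12:109595006-109595028: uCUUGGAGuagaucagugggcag
miR-136-5p, chr12:109595331-109595352: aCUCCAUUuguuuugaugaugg
These 6 seeds differed from one another and from the seeds of all other microRNAs of the domain. Of the 113 mature names in the domain, 18 shared their seed with another, in 9 pairs. The libraries were made from long RNA fragments, and rows for microRNA genes count pieces of longer transcripts, not mature microRNAs.

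*Dio3*, the targeted gene, had a mean of 0.35 RPKM (CV 1.23) in *Dio3*+/+ hearts and 0.13 RPKM (CV 0.76) in *Dio3*-/- hearts. With 4 values, the highest lies between 0.5 and 1.5 SD above the mean and the lowest between 0.5 and 1.5 SD below it. For *Dio3* these bounds mean that the hearts of the genotypes overlapped. Both means were below the 1 RPKM needed for testing. When all rows were fitted, the log2 fold change (*Dio3*-/- minus *Dio3*+/+, on the log2(RPKM + 0.5) scale, as below) was -0.43 ± 0.32 (SE), with an adjusted *P* of 0.589 by limma. The sources used here do not say which part of *Dio3* this allele changes, and a transcript row outside the changed part would not check the genotype. The labels were therefore also checked by a list of 5 genes of thyroid hormone action, of which 4 (*Klf9*, *Art3*, *Dbp* and *Hr*) passed with higher means in *Dio3*-/- hearts by limma, against 1.91% of all genes, and 3 by Welch's test. The study already reports *Klf9*, *Art3* and *Dbp* as higher from these same hearts. These calls are therefore no independent support, and show only that the columns carry the genotypes in the study's direction. *Klf9*, a thyroid hormone target, differed by 1.93 on the log2 scale (adjusted *P* = 5.741e-06, limma), and *Hr* reached the filter through its *Dio3*-/- mean alone. *Thra*, a thyroid hormone receptor, had 46.32 RPKM in *Dio3*+/+ hearts against 46.45 RPKM.

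The paternally expressed genes *Dlk1* and *Rtl1* had higher means in *Dio3*+/+ hearts, but neither passed the test. *Dlk1* encodes a transmembrane protein with epidermal growth factor repeats that restrains the differentiation of precursor cells, among them those of fat. Its mean was 29.27 RPKM (CV 0.80) in *Dio3*+/+ hearts and 15.75 RPKM (CV 0.32) in *Dio3*-/- hearts, a ratio of 1.86. The log2 fold change was -0.87 ± 0.49 (SE), with a 95% interval from -1.96 to 0.22 and an adjusted *P* of 0.378 (limma). The highest *Dio3*+/+ heart lay between 40.98 and 64.39 RPKM. The lowest *Dio3*+/+ heart lay at or below 17.56 RPKM, and the highest *Dio3*-/- heart at or above 18.27 RPKM, so the genotypes overlapped. All 5 *Dlk1* rows gave nearly the same value, from -0.89 to -0.87.

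*Rtl1* is derived from a retrotransposon and is required in the placenta and in fetal muscle. It was expressed at a lower level, with a mean of 3.11 RPKM (CV 0.85) in *Dio3*+/+ hearts and 1.68 RPKM (CV 0.17) in *Dio3*-/- hearts. The log2 fold change was -0.73 ± 0.43 (SE), with an adjusted *P* of 0.411 (limma), and here too the hearts of the genotypes overlapped. No strand marking is stated for these libraries, so reads of *Rtl1* and of the antisense transcript that carries the microRNAs shown above cannot be told apart.

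**Figure D1:**
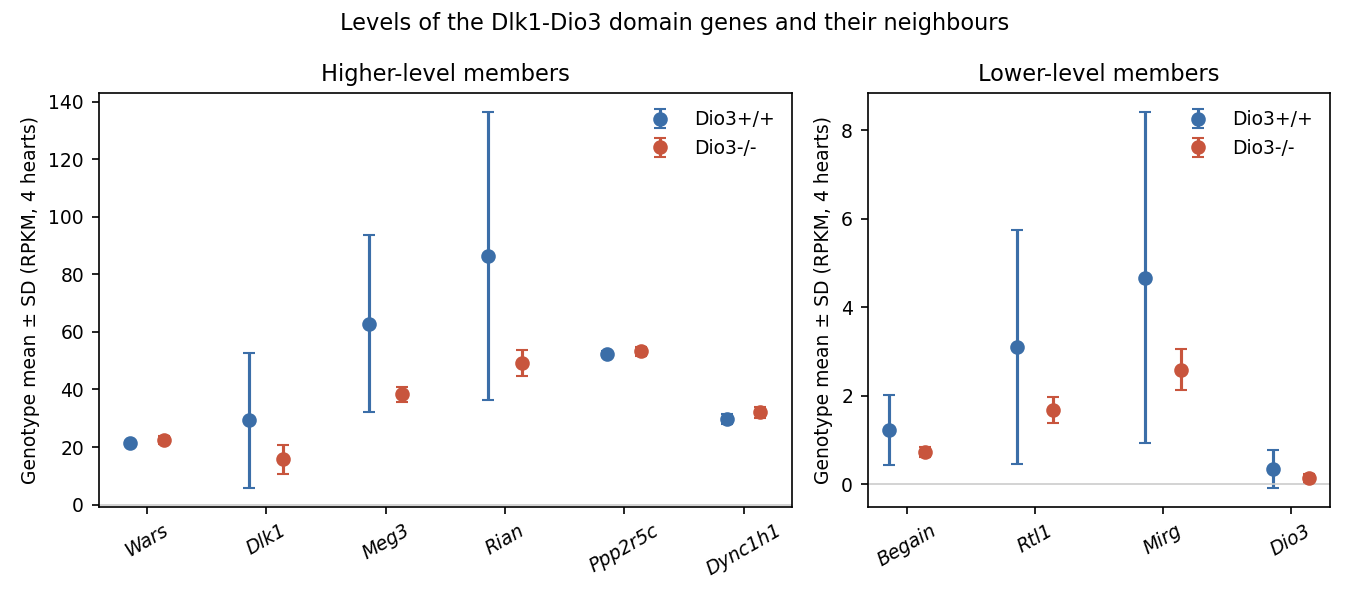
Deposited genotype means of the 10 genes in RPKM, in chromosomal order, with error bars of 1 SD obtained from the deposited CV (4 hearts per genotype). The 6 domain genes and *Begain* had higher means and wider bars in *Dio3*+/+ hearts, whereas *Wars*, *Ppp2r5c* and *Dync1h1* had nearly the same means with narrow bars.

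The maternally expressed noncoding RNAs *Meg3*, *Rian* and *Mirg* also had higher means in *Dio3*+/+ hearts, in the same direction as the paternal genes. *Meg3*, a long noncoding RNA, had a mean of 62.85 RPKM (CV 0.49) in *Dio3*+/+ hearts and 38.27 RPKM (CV 0.07) in *Dio3*-/- hearts. Its log2 fold change was -0.71 ± 0.28 (SE), with a 95% interval from -1.34 to -0.07. The unadjusted *P* was 0.0325 and the adjusted *P* 0.215 (limma), so it did not pass. The highest *Dio3*+/+ heart lay between 78.25 and 109.0 RPKM, and whether the genotypes overlapped is not fixed by the summaries.

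*Rian* had the highest *Dio3*+/+ mean of the 10 genes, 86.27 RPKM (CV 0.58), and a mean of 49.16 RPKM (CV 0.09) in *Dio3*-/- hearts. The log2 fold change was -0.80 ± 0.34 (SE), with a 95% interval from -1.56 to -0.05, an unadjusted *P* of 0.0387 and an adjusted *P* of 0.234 (limma). *Mirg* was less abundant, with 4.67 RPKM (CV 0.80) in *Dio3*+/+ and 2.59 RPKM (CV 0.18) in *Dio3*-/- hearts, and a log2 fold change of -0.74 ± 0.43 (SE; adjusted *P* = 0.395, limma). The highest *Dio3*+/+ heart lay between 111.3 and 161.3 RPKM for *Rian* and between 6.538 and 10.27 RPKM for *Mirg*.

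The rows of each noncoding RNA are transcript forms that share reads, and they differed more in level than in fold change. The 7 *Meg3* rows ranged from 6.74 to 62.85 RPKM in *Dio3*+/+ hearts, while their log2 fold changes ranged from -0.74 to -0.64. The 5 *Rian* rows ranged from 16.98 to 86.27 RPKM, with log2 fold changes from -0.83 to -0.56. An unadjusted *P* under 0.05 (limma) was found for 5 of the 7 *Meg3* rows and 4 of the 5 *Rian* rows. By its highest row, 19.7% of all genes tested reached that level in either direction. Because these rows share reads, they count as 2 genes and not as separate results. No row passed after adjustment, against 2.15% of all 32703 rows tested. All 23 tested rows of the domain genes had the lower mean in *Dio3*-/- hearts, against 36.4% of all rows tested, and rows of a gene share reads.

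Of the genes beside the domain, *Begain* resembled the domain genes and the other 3 did not. *Begain* encodes a protein that binds a guanylate kinase of neuronal synapses and is itself imprinted in some species. It had a mean of 1.23 RPKM (CV 0.64) in *Dio3*+/+ hearts and 0.73 RPKM (CV 0.15) in *Dio3*-/- hearts, with a log2 fold change of -0.49 ± 0.28 (SE; adjusted *P* = 0.390, limma). It reached the 1 RPKM filter through its *Dio3*+/+ mean alone, which favours a higher mean in that genotype.

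*Wars*, the cytoplasmic tryptophanyl-tRNA synthetase, lies farther from the domain than *Begain*, with *Wdr25* between them. It had 21.50 RPKM (CV 0.03) in *Dio3*+/+ and 22.51 RPKM (CV 0.06) in *Dio3*-/- hearts, and the 95% interval of its log2 fold change ran from -0.05 to 0.18. *Ppp2r5c*, a regulatory subunit of protein phosphatase 2A and the next member after *Dio3*, had 52.20 RPKM (CV 0.02) and 53.32 RPKM (CV 0.03), with an interval from -0.06 to 0.12. Its log2 fold change was 0.03 and turned to -0.008 after centring on the median of all rows. *Dync1h1*, the heavy chain of cytoplasmic dynein, had 29.81 RPKM (CV 0.06) and 32.05 RPKM (CV 0.06), with an interval from -0.03 to 0.24. The adjusted *P* values of these 3 genes ranged from 0.401 to 0.746 (limma), and their intervals leave out changes as large as those measured for the domain genes.

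In all, 0 of the 9 tested members passed an adjusted *P* of 0.05 by limma, and 0 by Welch's test calculated from the same summaries. Over all genes tested, 0.184% passed by Welch's test, 2.29% passed by limma in either direction, and 0.382% passed with a lower mean in *Dio3*-/- hearts. An unadjusted *P* under 0.05 (limma) was found for 2 of 9 members (*Meg3* and *Rian*), both with the lower mean in *Dio3*-/- hearts. Of all genes, 19.7% reached that level in either direction, which is near the share of the members. With a lower mean in *Dio3*-/- hearts, 4.46% of all genes reached it. The median log2 fold change was -0.71 over the 9 members and 0.04 over the 14657 genes tested. Of the 9 tested members, 6 had a *Dio3*+/+ mean at least 1.5 times the *Dio3*-/- mean, a size reached by 2.89% of all genes tested. *Begain*, among them, was tested through its *Dio3*+/+ mean alone. Of the 8 members with both means above 1 RPKM, which excludes *Begain* and *Dio3*, 5 reached that size. The share of all genes in this narrower set was not computed. Those 5 are the tested genes inside the domain.

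**Figure D2:**
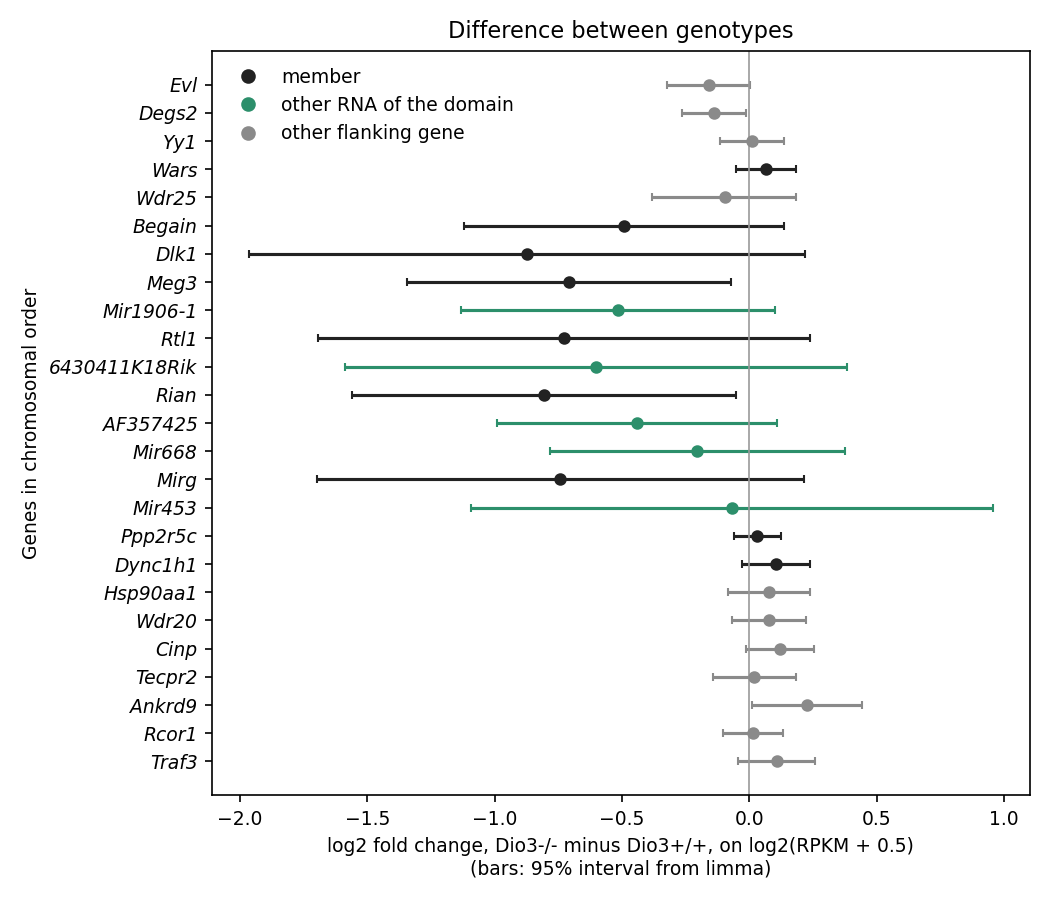
Log2 fold change with its 95% interval (limma) for the 9 tested members, in chromosomal order. The intervals of *Meg3* and *Rian* lie below 0 before adjustment, those of the other domain genes and *Begain* are wide and include 0, and those of *Wars*, *Ppp2r5c* and *Dync1h1* are narrow around 0.

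The spread between *Dio3*+/+ hearts divided the members in the same way as the fold changes did. High values in few *Dio3*+/+ hearts raise both the mean and the CV, so these divisions are not independent. *Begain* was tested through its *Dio3*+/+ mean alone. A CV above 0.3 in *Dio3*+/+ hearts was found for 6 of the 9 tested members, namely *Begain* and the 5 tested domain genes, against 6.30% of all genes tested. *Dio3*, below the filter, had a CV of 1.23. Among tested genes, 97.1% had a lower *Dio3*+/+ CV than *Meg3* and 98.9% a lower one than *Rtl1*, with *Rian*, *Begain*, *Dlk1* and *Mirg* between them. In *Dio3*-/- hearts, *Dlk1* was the only tested member above 0.3, with a CV of 0.32, against 2.52% of all genes. Several were still among the more variable genes there. Of tested genes, 89.0% had a lower *Dio3*-/- CV than *Begain*, 91.5% than *Rtl1*, 92.5% than *Mirg* and 97.6% than *Dlk1*. For *Meg3* and *Rian* the shares were 52.6% and 69.1%. *Wars* and *Ppp2r5c* were at the other end, with 3.41% and 0.846% of genes having a lower *Dio3*+/+ CV. The combination of a *Dio3*+/+ CV above 0.3 and a *Dio3*+/+ mean at least 1.5 times higher held for 2.10% of all genes tested.

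The order of the levels, in RPKM per transcript length, differed little between genotypes. In *Dio3*+/+ hearts it ran *Rian*, *Meg3*, *Ppp2r5c*, *Dync1h1*, *Dlk1*, *Wars*, *Mirg*, *Rtl1*, *Begain* and *Dio3*. Because of the wide spread, only *Ppp2r5c* over *Dync1h1* and *Wars* over *Mirg* differed by more than the sum of their SDs. In *Dio3*-/- hearts, *Ppp2r5c* stood above *Rian* and *Meg3*, and *Wars* above *Dlk1*. There, all neighbours in the order differed by more than the sum of their SDs except *Ppp2r5c* and *Rian*, which were 4.16 RPKM apart.

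Other genes on either side of the domain were examined as a list of 15, of which 11 were tested. Of these 11, *Wdr25* lies between *Wars* and *Begain* (CV 0.20 in *Dio3*+/+ hearts, log2 fold change -0.10), and the others lie outside the span of the members. None passed (limma, 0 of 11; Welch's test, 0), and 2 had an unadjusted *P* under 0.05, against 19.7% of all genes tested. These were *Degs2*, a sphingolipid desaturase and hydroxylase, with 9.39 and 8.49 RPKM in *Dio3*+/+ and *Dio3*-/- hearts, and *Ankrd9*, with 1.76 and 2.14 RPKM. The log2 fold changes of the 11 genes ranged from -0.16 for *Evl*, a regulator of actin, to 0.22 for *Ankrd9*, with a median of 0.02. Their CVs in *Dio3*+/+ hearts ranged from 0.01 to 0.20 and in *Dio3*-/- hearts from 0.02 to 0.14. *Hsp90aa1*, a chaperone after *Dync1h1*, was the most abundant, with 249.69 and 263.53 RPKM. The wide spread of *Begain* and the domain genes was therefore not shared by any of these 11 genes. Below the filter, *Slc25a29* (0.69 and 0.71 RPKM) had a CV of 0.31 in *Dio3*+/+ hearts, the highest of the list.

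The other RNAs examined in the domain were mostly at or near 0. They were the 61 microRNA and 19 small nucleolar RNA genes that RefSeq lists between *Dlk1* and *Dio3*, with *Dio3os* and *6430411K18Rik*. Other kinds of genes in this interval were not in the list. Of these 82 genes, 52 had a row, 19 of which were listed at 0 in both genotypes, and 5 were tested. None of the 5 passed (limma, unadjusted *P* under 0.05 for 0; Welch's test, 0). Only *6430411K18Rik* and *AF357425* had both means above 1 RPKM. *6430411K18Rik*, the transcript antisense to *Rtl1*, had 2.34 RPKM (CV 0.89) in *Dio3*+/+ and 1.37 RPKM (CV 0.26) in *Dio3*-/- hearts, close to the values of *Rtl1*, whose reads it can share. *AF357425*, a small nucleolar RNA within *Rian*, had 4.13 RPKM (CV 0.45) and 2.91 RPKM (CV 0.13). The microRNA genes *Mir1906-1*, *Mir668* and *Mir453* reached the filter through the *Dio3*+/+ mean alone (1.46, 1.01 and 1.01 RPKM), so the direction of their difference was fixed by the filter. Of the 6 microRNAs opposite *Rtl1*, *Mir431* and *Mir434* were listed at 0.10 and 0.09 RPKM in *Dio3*+/+ hearts with a CV of 2, the value reached when 1 of 4 hearts holds all reads. Both were listed at 0 in *Dio3*-/- hearts. *Dio3os*, transcribed opposite *Dio3*, had 0.06 RPKM (CV 1.15) and 0.04 RPKM (CV 0.67).

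Several markers of skeletal muscle, cartilage and mesenchyme, and all 8 hepatocyte markers, also had a wide spread in *Dio3*+/+ hearts, whereas endothelial markers did not. All 8 cardiomyocyte markers were present, with summed means of 12410 and 14760 RPKM (in *Dio3*+/+ and *Dio3*-/- hearts, the order used below) and CVs of at most 0.19. Of them, 1, *Myh6*, passed by limma, against 2.29% of all genes, but not by Welch's test. An unadjusted *P* under 0.05 (limma) was found for 5 of the 8. That level was reached by 19.7% of all genes tested, the share to set beside each marker list below. Of 6 skeletal muscle markers, 0 passed (limma; unadjusted *P* under 0.05 for 5; adjusted *P* from 0.0810 to 0.612), 4 had the lower mean in *Dio3*-/- hearts, and the summed means were 197.1 and 243.0 RPKM. The defining regulators *Myog* (9.78 RPKM, CV 1.56) and *Myod1* (4.42 RPKM, CV 1.62) were wide in *Dio3*+/+ hearts and low in *Dio3*-/- hearts (1.17 and 0.46 RPKM). *Myh3*, the embryonic myosin, had 14.23 RPKM (CV 1.61) and 0.72 RPKM (CV 0.99). *Acta1* and *Ckm*, which heart muscle also expresses, had higher means in *Dio3*-/- hearts.

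Of 6 cartilage markers, 4 were tested, 0 passed (unadjusted *P* under 0.05 for 2), and all 4 had the lower mean in *Dio3*-/- hearts, with sums over the list of 55.73 and 39.67 RPKM. *Col2a1*, the main cartilage collagen, had 15.73 RPKM (CV 0.52) and 8.40 RPKM (CV 0.09), while *Matn1* was at 0.02 and 0.04 RPKM. Of 4 fibroblast and mesenchyme markers, 3 had the lower mean in *Dio3*-/- hearts and a *Dio3*+/+ CV above 0.3, 0 passed (unadjusted *P* under 0.05 for 0), and the sums were 465.9 and 396.5 RPKM. All 8 hepatocyte markers had the higher mean in *Dio3*-/- hearts, with sums of 15.98 and 108.1 RPKM, and 0 passed (unadjusted *P* under 0.05 for 8). Their CVs ranged from 0.50 to 1.41 in *Dio3*+/+ hearts and from 0.89 to 1.26 in *Dio3*-/- hearts. Welch's test called 0 genes of these 4 lists. The 4 endothelial markers had CVs of at most 0.08 and none passed (unadjusted *P* under 0.05 for 2). Of the lung markers, *Nkx2-1* had 8.18 and 8.35 RPKM, *Foxa2* had 0.21 and 0.39 RPKM, and *Sftpc* was listed at 0 in *Dio3*+/+ hearts and at 0.26 RPKM in *Dio3*-/- hearts. Of 7 genes that change with fetal age, 1 passed by limma, against 2.29% of all genes, and 3 had an unadjusted *P* under 0.05. All 3 were embryonic globins with lower means in *Dio3*-/- hearts. *Hbb-bh1* passed (317.82 and 110.93 RPKM, log2 fold change -1.51, adjusted *P* = 0.0468, limma). *Hbb-y* (29100.96 and 9908.94 RPKM, -1.55, adjusted *P* = 0.0751, limma) and *Hba-x* (7388.93 and 2529.68 RPKM, -1.55, adjusted *P* = 0.0619, limma) did not. In this list, 2 genes had the higher mean in *Dio3*-/- hearts. The call of *Hbb-bh1* was lost with all rows above 0 (adjusted *P* = 0.0824, limma) and by Welch's test. The part of these markers and of fetal age in the values of the domain genes was not tested. In bulk hearts, fewer cells of a type and less RNA per cell cannot be told apart.

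**Figure D3:**
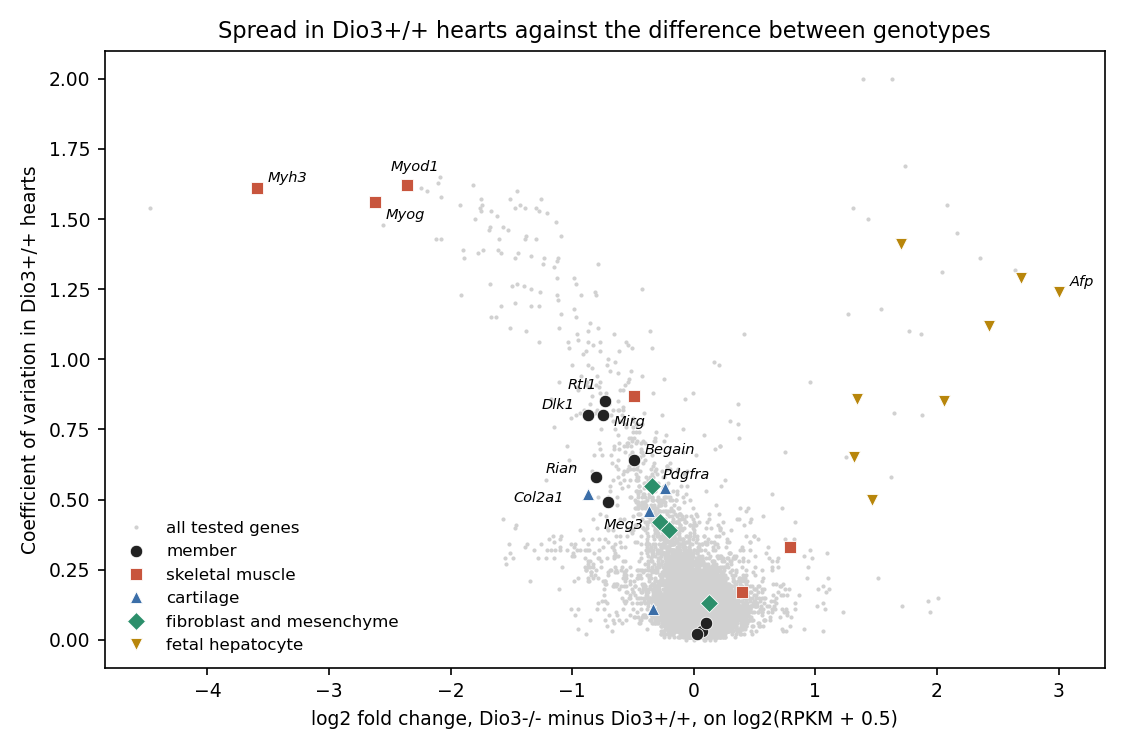
Coefficient of variation in *Dio3*+/+ hearts against the log2 fold change for all tested genes (grey), the members and 4 marker lists. The domain genes and *Begain* lie at a CV of 0.49 to 0.85 with fold changes from -0.87 to -0.49, near *Col2a1* and below *Myh3*, *Myog* and *Myod1* in CV. Both axes use the *Dio3*+/+ mean, so a shared trend is part of the construction.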

How the data were processed

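RNA from 4 *Dio3*+/+ and 4 *Dio3*-/- fetal hearts was depleted of ribosomal RNA and sequenced from 1 end. Per the submitters' processing notes and the study's methods, reads were checked with FastQC and aligned with Novoalign (version 2.08), uniquely mapping reads were used, and samples were brought to the read number of the smallest by linear scaling. The genome build is not given in the sources used here. The authors deposited genotype means, read here as RPKM because the study's filter is stated in that unit, and coefficients of variation, a ratio of SD to mean, both rounded to 2 decimals. They also deposited a fold change, a q value and expression flags for their own comparison, which were not used. The table holds no values of single hearts and no read totals. The study's methods give a range of aligned reads, but the depth and the precision it gives cannot be computed from these values.

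The genotypes were compared with limma (version 3.58.1, R version 4.3.3) from the summaries. The SD of log2(mean + 0.5) was approximated by the delta method, and variances with 6 residual degrees of freedom were moderated along a mean-variance trend (3.52 prior degrees of freedom). Benjamini-Hochberg adjustment covered the 32703 rows (14657 genes) in which either genotype's mean exceeded 1 RPKM. The approximation is least reliable at large coefficients of variation, and the pooled variance assumes the same spread in both genotypes, which differed for the domain genes. Each RNA came from 1 mouse; litters are not stated. The step was tested on simulated data that gave both genotypes the same coefficient of variation. That test did not cover an unequal spread. Summaries used Python (version 3.11.15), numpy (2.4.6) and pandas (2.3.3).

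The genes named were all 10 members, and genes from lists of other domain RNAs, flanking genes, imprinting regulators and markers of genotype, fetal age, sex and cell types. *Degs2*, *Evl*, *Ankrd9* and *Hsp90aa1* stand for the extremes of their list. Members and lists were chosen with earlier results of these data known. Promoter and microRNA sequences came from RefSeq on GRCm38.p6, and the gene order from GENCODE M21; neither is known to be the authors' build. Alternatives were pseudocounts of 0.1 and 1, all rows above 0, a mean above 5 RPKM over both genotypes, no trend, 1 row per gene, Welch's test from the summaries, centring on the median log2 ratio, and other rows of a gene.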

Additional observations from a re-analysis of the deposited data

How the results depend on the processing

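The counts of members, other domain RNAs and flanking genes that passed were 0 under every alternative that could be run, but with a mean above 5 RPKM over both genotypes none of the other domain RNAs was tested, so that 0 says nothing. Of 97 values of single members under the alternatives, 96 kept their direction and their side of the threshold. The exception was *Ppp2r5c*, whose log2 fold change became -0.008 (adjusted *P* = 0.956, limma) after centring on the median log2 ratio of all rows, a shift of 0.0379. Over the alternatives that kept the row and the scaling, the adjusted *P* ranged from 0.178 to 0.471 for *Meg3*, from 0.195 to 0.487 for *Rian* and from 0.334 to 0.578 for *Dlk1*. With that filter, *Begain*, *Rtl1*, *Mirg* and *Dio3* had no value. Over the whole table, 703 of 32703 rows passed, against 431 of 49226 with all rows above 0, 811 of 22106 with a mean above 5 RPKM, 69 by Welch's test and 394 after centring. With 1 row per gene, 319 of 14657 genes passed. Of the genes that passed by their highest row, 83.3% were higher in *Dio3*-/- hearts (280 of 336), and 71.7% after centring (129 of 180). No paired analysis was possible because the table holds genotype means and not the values of numbered hearts, and leaving out each heart in turn was not run for the same reason. Read totals are not in the table, and means near 0, such as those of *Dio3* and most microRNA genes, are limited by the rounding to 2 decimals.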

Other observations

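Regulators of imprinting elsewhere in the genome were examined as a list of 8, of which 7 were tested and 0 passed (limma; unadjusted *P* under 0.05 for 0; 0 by Welch's test; adjusted *P* from 0.448 to 0.936). *Zfp57*, the zinc finger protein that keeps methylation at imprinted control regions, had a deposited mean of 15.21 RPKM (CV 0.26) in *Dio3*+/+ and 12.85 RPKM (CV 0.02) in *Dio3*-/- hearts. Its partner *Trim28* had 99.12 and 96.0 RPKM, and the maintenance methyltransferase *Dnmt1* had 38.38 and 39.41 RPKM. *Ctcf*, an insulator protein, had 30.8 and 31.7 RPKM. *Ezh2*, the methyltransferase of Polycomb repressive complex 2, had 28.22 and 27.86 RPKM. *Dnmt3l*, a cofactor of methylation in germ cells, was near 0 (0.01 and 0.07 RPKM) and was not tested.

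Sex-linked genes were present with wide spread in both genotypes, although the design text describes the animals as male. *Xist*, expressed from the inactive X chromosome, had 35.64 RPKM (CV 0.99) in *Dio3*+/+ and 39.97 RPKM (CV 0.55) in *Dio3*-/- hearts. The part of sex in the values of the domain genes was not tested.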
